A study of Bos taurus with 20 samples.

Results

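The solute carriers are membrane proteins that move one small molecule at a time, or exchange one for another, across the plasma membrane and the membranes of the cell's organelles. Gene symbols that begin with SLC and a number group them into families, and most families share a kind of substrate: SLC25 carries metabolites across the inner mitochondrial membrane, SLC2 carries glucose, SLC30 moves zinc out of the cytosol and SLC39 moves it in, and SLC35 brings nucleotide sugars into the Golgi. In the lactating mammary gland they bring glucose, phosphate, amino acids and trace metals from the blood to the secretory epithelium, and phagocytes use others to withdraw metals from engulfed bacteria. The probe sets described here are those of the Affymetrix Bovine array whose annotation names 1 gene, whose symbol starts with SLC and a digit, and which were selected on level, with a value higher than the array's own median in 3 or more of the 20 arrays. Left out were SLC7A5, SLC3A2, SLC1A5, SLC38A2, SLC7A1, SLC39A14 and SLC27A6, most of them plasma membrane carriers of amino acids. The array holds 252 solute carrier probe sets with 1 symbol, 244 of them outside these 7 genes, and 142 probe sets of 112 genes met the rule among 24016 probe sets in all. Of the other 102, 93 lay below the median on every array, and 60 genes had no probe set that met the rule. The rule uses the level on the same arrays, so a level above the median is no finding. Of the 142, 92 lay above the median on all 20 arrays and 7 on exactly 3, namely SLC5A5, SLC25A48, SLC34A2, SLC39A12, SLC29A2, SLC27A4 and SLC9A5, while 4 candidates were above it on 2 arrays and stayed outside. Of the 142, 5 met the rule only with the CNT arrays counted, the arrays of the challenged, untreated glands: SLC5A5 was above the median on 3 CNT arrays only, SLC1A1 on 4 CNT arrays only, SLC11A1 on 4 CNT arrays and 1 other, SLC25A48 on 2 and 1, and SLC46A2 on 5 and 2. These 5 had to be high in CNT to be members, so their levels and fold changes are given as a description, with no p, and counts are also given for the other 137. SLC7A6OS, a gene on the strand opposite SLC7A6, and SLC4A1AP, an adaptor protein, met the rule by their symbols although they are not carriers.

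The tissue came from 5 mid-lactating Holstein Friesian cows, each of which gave all 4 glands (udder compartments) to the study. One gland was not challenged (NC), and the other 3 received 100 cfu of E. coli: 1 stayed untreated (CNT), 1 was infused with 300 mg cefapirin, a cephalosporin antibiotic (CF), and 1 with 300 mg cefapirin plus 20 mg prednisolone, a glucocorticoid (CFPD). Infusions were given 4 and 12 h post challenge, and in the cows kept longer also at 24 and 36 h. Cows 4 and 5 were sampled 24 h post challenge and cows 1, 2 and 3 at 48 h, so a time point is also a set of cows. Below, 24 h values stand in the order cow 4, cow 5, and 48 h values in the order cow 1, cow 2, cow 3. All levels are log2 values after robust multi-array averaging (RMA), on which a difference of 1 is a 2-fold difference, and levels of different probe sets are not compared. The NC gland was the right front and the CNT gland the left front in every cow, so position and challenge cannot be told apart. The sample labels name the cisternal region, while the study's methods name the mid parenchyma. For cows 2 and 5 it is in doubt which treated gland was CF and which CFPD, because fold changes tabulated by the study lie nearer to these arrays once both are exchanged. For that reason the mean of CF and CFPD was also compared with CNT (treated against CNT). Its fold change does not depend on these labels, but its spread and calls can, and the exchange was not run for it.

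Array medians ranged from 7.13 to 7.31, and differences are given with their standard error (SE) from limma, a linear model fitted over all probe sets. Milk protein and milk fat genes of the secretory epithelium were present in every gland, and of their 7 tested genes 1, BTN1A1, was lower in CNT at 24 h and 0 at 48 h. Their summed level was nonetheless lower in CNT than in NC without overlap. It was 17.89 to 17.93 in NC and 17.70 to 17.72 in CNT at 24 h, and 17.90 to 17.99 and 17.54 to 17.79 at 48 h. Neutrophil genes (S100A8, S100A9, S100A12 and CXCR1) were the most shifted marker group: all 4 tested genes were higher in CNT than in NC at both time points, with a median log2 fold change of 4.85 at 24 h and 4.00 at 48 h, while ITGAM and MPO of the same list were below the array median on every array. The summed neutrophil level was 9.77 to 10.4 in NC, 13.4 to 15.3 in CNT, 10.1 to 10.2 in CF and 10.4 to 10.7 in CFPD at 24 h, and 9.3 to 10.2, 12.9 to 14.4, 9.69 to 10.5 and 10.2 to 10.5 at 48 h. Of 4 macrophage genes, 2 were higher in CNT at 48 h and 0 at 24 h, and the 3 adipocyte genes were below the median on every array. Over all probe sets, 1.62% were higher in CNT at 24 h and 2.15% at 48 h, and 0.769% and 0.515% were lower. The summed keratin level was 14.98 to 15.25 in NC and 14.16 to 14.50 in CNT at 24 h. At 48 h it overlapped, at 14.11 to 14.95 and 14.55 to 14.95. The summed fibroblast level at 48 h was 11.38 to 11.87 in NC and 11.19 to 13.34 in CNT, highest in cow 2. In whole tissue, fewer cells of a type and less RNA per cell cannot be told apart, and the part of the neutrophil shift in the carrier values was not tested.

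By substrate, the 142 probe sets comprised 26 of mitochondrial carriers, 19 of nucleotide sugar carriers, 18 of zinc carriers, 15 of carriers of amino acids and related compounds, 12 of ion carriers, 12 of carriers of nucleosides and vitamins, 9 of sodium-coupled and related sugar carriers, 7 of organic ion carriers, 5 of carboxylate carriers, 5 of fatty acid and choline carriers, 4 of carriers of iron and copper, 3 each of the glucose (SLC2), phosphate and SLC66 families, and 1 of a peptide carrier. Few of them passed the test of CNT against NC, which rests on 2 cows at 24 h and 3 at 48 h. Of 133 member probe sets tested at 24 h, 5 passed an adjusted p under 0.05 with at least a 2-fold difference between CNT and NC, 3 higher (SLC6A14, SLC11A1 and SLC11A2) and 2 lower (SLC20A2 and SLC16A1). This was 3.76% of the members, against 2.39% of all 13004 probe sets tested (1.62% higher and 0.769% lower). At 48 h 8 of 134 passed (5.97%), 6 higher (SLC11A1, SLC7A7, SLC16A3, SLC1A1, SLC66A3 and SLC35F6) and 2 lower (SLC38A3 and SLC25A21), against 2.66% of all 13000 (2.15% higher and 0.515% lower). The 9 members too low to be tested at 24 h were SLC1A1, SLC25A48, SLC34A2, SLC27A4, SLC9A5, SLC12A3 and single probe sets of SLC25A20, SLC5A10 and SLC27A1, and the 8 at 48 h were SLC5A5, SLC8A1, SLC18A2, SLC25A48, SLC27A4, SLC29A2, SLC39A12 and SLC9A5. Without the fold minimum, 6 and 11 members passed, where the share over all probe sets was 2.81% and 4.4%. SLC66A2 was the additional one at 24 h, and SLC11A2, SLC39A11 and SLC45A1 were those at 48 h. At an unadjusted p under 0.05 the members numbered 36 at 24 h (27.1%, against 20.7% of all probe sets) and 36 at 48 h (26.9%, against 24.3%). With the cow as a block they numbered 59 (44.4%, against 32.7%) and 48 (35.8%, against 34.4%). These counts include members that met the rule through their CNT arrays. The median log2 fold change of the members was -0.0086 at 24 h, beside -0.00564 for all probe sets, and -0.028 at 48 h, beside 0.126 for all. Among the 137 members that met the rule without the CNT arrays, 4 of 130 tested passed at 24 h (3.08%) and 6 of 131 at 48 h (4.58%), with SLC11A1 taken out at both times and SLC1A1 at 48 h.

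The 4 glands of a cow are paired by animal, and with the cow as a block more members passed: 15 at 24 h (6.1% of all probe sets) and 14 at 48 h (5.17%), including each of the 5 and 8 above. Of the genes that the block added, SLC46A2 and SLC5A5 are members through their CNT arrays, and the others are given with their families below. The calls at 24 h rest on 2 cows. A group of 1 array has no spread of its own, so with an array left out at 24 h the other groups supplied it, and with a cow left out the arrays at 48 h did, and the lone arrays are assumed to vary like those. With a single array left out, the number of calls came to 0 for either NC array and for the CNT array of cow 4, and to 10 for the CNT array of cow 5. With a whole cow left out, none of the 5 passed without cow 4 and SLC11A1 alone of them without cow 5. Without cow 4, SLC39A12 had a log2 fold change of -3.34. It met the rule only through its NC, CF and CFPD glands of cow 5, so a high NC value in that cow was a condition of entry. Without cow 5, the log2 fold change was 3.61 for SLC11A1, 2.70 for SLC7A7, 3.54 for SLC16A3 and 1.87 for SLC66A3. At 48 h the number of calls came to 0 without cow 1, to 2 without cow 2 and to 2 without cow 3, with SLC7A7 in both of these. With 1 array left out it came to 3 for NC of cow 1, 3 for NC of cow 3, 4 for NC of cow 2 and 5 for CNT of cow 2. Among members above the median on all 20 arrays alone, the calls were 2 at 24 h and 1 at 48 h. A direction shared by all 5 cows was more common than a call: 29 of 142 members (20.4%) were higher in CNT than in the same cow's NC gland in all 5 cows, against 19% of all probe sets, and 25 (17.6%) were lower in all 5, against 10.7%. The 29 include SLC11A1, SLC1A1, SLC25A48 and SLC46A2, members through their CNT arrays, so the share of 20.4% was in part set by the rule. The 25 include SLC39A12 and SLC34A2, which lay below the median on every CNT array and met the rule through other glands. The share of 17.6% was thus in part set by the rule as well.

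**Figure D1:**
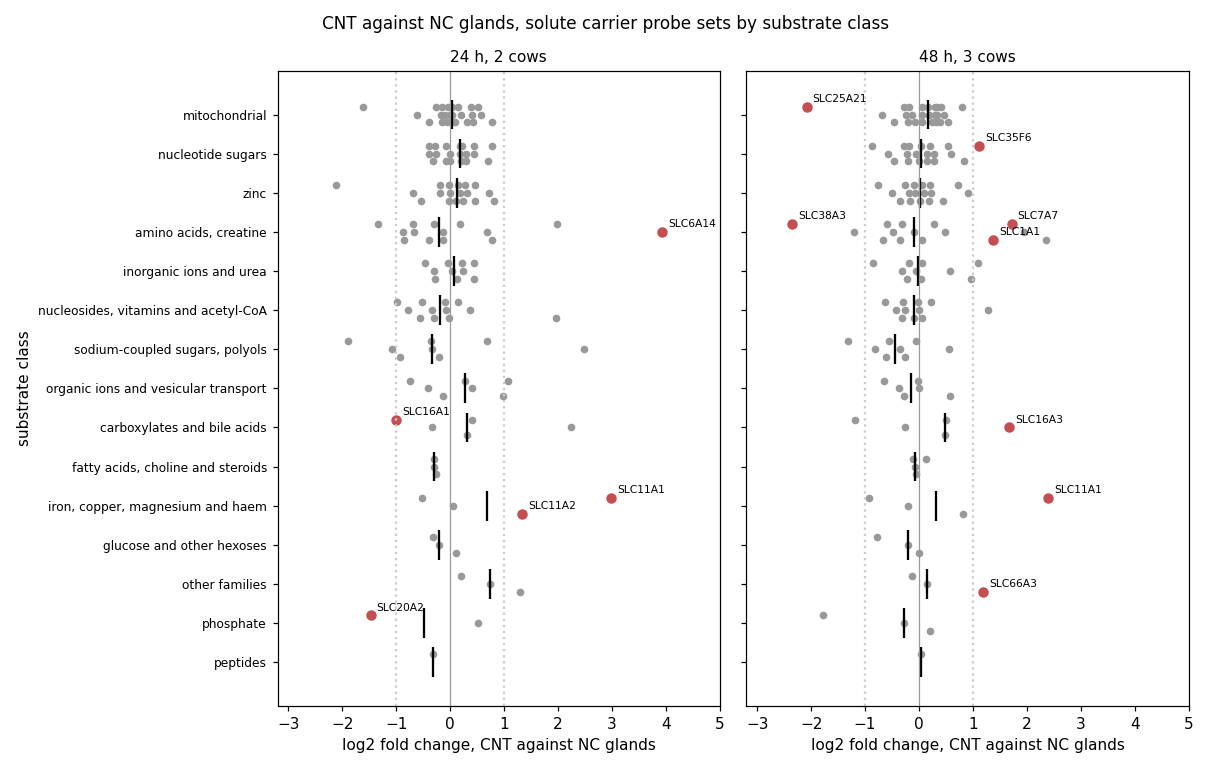
Log2 fold change between CNT and NC for each tested member probe set, in rows by substrate class, at 24 h and at 48 h. Each point is 1 probe set, red points passed the test (5 at 24 h and 8 at 48 h), and black bars mark the class median. The class medians all lie within the dotted lines, which mark a 2-fold difference, while single members of most classes lie outside them, among them each red point.

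Among the carriers of iron and related metals, SLC11A1 was a member through its CNT arrays, and of the others SLC11A2 passed the test, at 24 h. SLC11A1 (NRAMP1), which pumps iron and manganese out of the phagosome of macrophages and neutrophils, measured 5.86 and 5.40 in NC and 9.47 and 7.76 in CNT at 24 h. The values at 48 h were 5.42, 5.17 and 5.23 in NC and 8.12, 7.68 and 7.22 in CNT. Every CNT gland lay above every NC gland, and the CNT gland of cow 4 was the highest of all 20. Its log2 fold change came to 2.98 ± 0.54 (SE) at 24 h and 2.40 ± 0.41 (SE) at 48 h, as a description, since it was a member through the CNT arrays. SLC11A2 (DMT1), the importer of ferrous iron at the plasma membrane and from endosomes, measured 9.81 and 9.42 in NC and 11.04 and 10.86 in CNT at 24 h, a rise of 1.34 ± 0.19 (SE, adjusted p = 0.0273). At 48 h it measured 9.92, 9.88 and 9.51 in NC and 10.57, 10.29 and 10.93 in CNT, and its difference of 0.82 (adjusted p = 0.0465) passed on p but stayed below the fold minimum. It, too, was higher in CNT in all 5 cows, and its groups did not overlap at either time. The copper importer SLC31A1 differed by 0.05 and -0.20. SLC31A2, a copper carrier of endosomes, had a lower value in CNT in all 5 cows, from a difference of -0.05 in cow 4 to -1.55 in cow 2, but did not pass the test at 24 h (-0.52 (adjusted p = 0.283)) or 48 h (-0.93 (adjusted p = 0.252)).

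Other genes of metal handling were higher in the same glands. Of 9 tested genes of a list of ferritins, iron transport proteins, metallothioneins and haem enzymes, each given by its brightest probe set, 2 were higher in CNT at 24 h and 4 at 48 h, beside 1.62% and 2.15% of all probe sets, with list medians of 1.04 and 1.03. These were the metallothionein MT1A at 2.67 (adjusted p = 0.022) and 2.45 (adjusted p = 0.0378), the endosomal ferrireductase STEAP3 at 1.04 (adjusted p = 0.0278) and 1.03 (adjusted p = 0.0404), and at 48 h also ceruloplasmin (CP), with 3 probe sets between 3.69 and 4.84, and the haem oxygenase HMOX1 at 1.94 (adjusted p = 0.0346). Lactoferrin (LTF), the iron-binding protein of milk and of neutrophil granules, was higher on a dimmer probe set at both times, at 1.44 (adjusted p = 0.0437) and 2.59 (adjusted p = 0.0121). The transferrin gene TF and its receptor TFRC were below the median on all arrays. This list and the next were chosen with earlier results of these data known, so their counts are a description. Of 4 members on a list of host metal carriers (SLC11A2, SLC25A37, SLC39A1 and SLC39A8), SLC11A2 rose at 24 h and 0 passed at 48 h, with medians of 0.617 and 0.342. SLC25A37 (mitoferrin), which brings iron into mitochondria, was higher in CNT in all 5 cows at 0.41 (adjusted p = 0.219) and 0.25 (adjusted p = 0.352) without passing.

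Zinc carriers were numerous, with 18 probe sets of 14 genes, and none passed the test in CNT against NC with the fold minimum. SLC39A11, which moves zinc into the cytosol, came nearest at 48 h. It measured 8.90, 8.83 and 8.46 in NC and 9.65, 10.03 and 9.26 in CNT, and its log2 fold change of 0.92 (adjusted p = 0.0481) passed on p with less than a 2-fold difference. At 24 h it was 0.47 (adjusted p = 0.283), and its CNT value was above NC in each of the 5 cows. SLC39A1 (ZIP1), a plasma membrane importer, was likewise higher in all 5 cows, at 0.82 (adjusted p = 0.0985) and 0.44 (adjusted p = 0.229). SLC39A8 (ZIP8), which also carries manganese, hardly differed at 24 h (-0.01 (adjusted p = 0.983)) and at 48 h had 1 gland apart, the CNT gland of cow 2 at 12.31 beside 13.36 in its NC gland. SLC30A2, the zinc exporter that loads secretory vesicles of the lactating epithelium, measured 8.35 and 7.35 in NC and 7.21 and 7.12 in CNT at 24 h, and 8.55, 7.79 and 8.02 and 7.33, 6.36 and 8.40 at 48 h. It was lower in CNT in 4 of 5 cows and higher in cow 3, at -0.69 (adjusted p = 0.424) and -0.75 (adjusted p = 0.336). The Golgi exporter SLC30A5 differed by 0.24 and 0.20. SLC39A12 was lower in CNT in all 5 cows, by most in cow 5, where it measured 7.46 in NC and 4.12 in CNT. It was above the array median only in the NC, CF and CFPD glands of that cow. The 12 other probe sets lay between -0.55 and 0.72.

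Among carriers of amino acids and related compounds, 15 probe sets of 11 genes remained outside the excluded genes, and this class held the highest fold change of the members at 24 h and the lowest at 48 h. SLC6A14, a sodium- and chloride-dependent importer of neutral and cationic amino acids, measured 7.49 and 6.86 in NC and 11.49 and 10.72 in CNT at 24 h. Its rise of 3.93 ± 0.42 (SE, adjusted p = 0.0141) was the largest of the members at that time. At 48 h the values were 5.75, 6.25 and 5.86 in NC and 8.81, 7.17 and 8.94 in CNT. The difference was smaller in cow 2 than in cows 1 and 3, and the difference of 2.35 (adjusted p = 0.101) did not pass. SLC7A7, the light chain of an exchanger of cationic for neutral amino acids, measured 7.43, 7.42 and 6.87 in NC and 8.98, 8.97 and 8.93 in CNT at 48 h, with nearly equal CNT glands, and rose by 1.72 ± 0.20 (SE, adjusted p = 0.00218). At 24 h it was 7.38 and 7.08 in NC and 10.08 and 8.33 in CNT, a difference of 1.97 (adjusted p = 0.0898) that passed only with the cow as a block (adjusted p = 0.0159). The call at 48 h was lost without cow 1. SLC1A1, a glutamate and aspartate importer, measured 6.15, 6.61 and 6.44 in NC and 8.01, 7.40 and 7.92 in CNT at 48 h, a difference of 1.38 ± 0.24 (SE) in a member chosen through its CNT arrays. It was too low to be tested at 24 h, where it measured 6.68 and 6.51 in NC and 7.41 and 7.05 in CNT.

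Other members of the same class were lower in the challenged glands. SLC38A3, a glutamine carrier, measured 8.95, 8.91 and 7.97 in NC and 6.53, 5.60 and 6.61 in CNT at 48 h and fell, with a log2 fold change of -2.36 ± 0.43 (SE, adjusted p = 0.0148), the lowest fold change of the members at that time. Its second probe set had -1.21 (adjusted p = 0.12) and passed with the cow as a block (adjusted p = 0.0147). At 24 h both probe sets were lower in CNT in both cows, at -0.68 and -0.70, and neither passed. SLC1A4, a carrier of alanine, serine and cysteine, measured 10.15 and 10.89 in NC and 8.91 and 9.45 in CNT at 24 h. This difference of -1.34 (adjusted p = 0.115) passed with the block (adjusted p = 0.00721). The creatine importer SLC6A8 was lower in CNT in all 5 cows on both of its probe sets, and the brighter one had -0.87 (adjusted p = 0.0766) and -0.60 (adjusted p = 0.289). In the whole class 5 probe sets were higher, SLC1A1 among them, and 5 lower in CNT in all 5 cows. SLC1A4 and SLC6A8 were chosen for mention after their values were seen, as were the others below that neither a list nor a call against NC, CF or CFPD names.

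**Figure D2:**
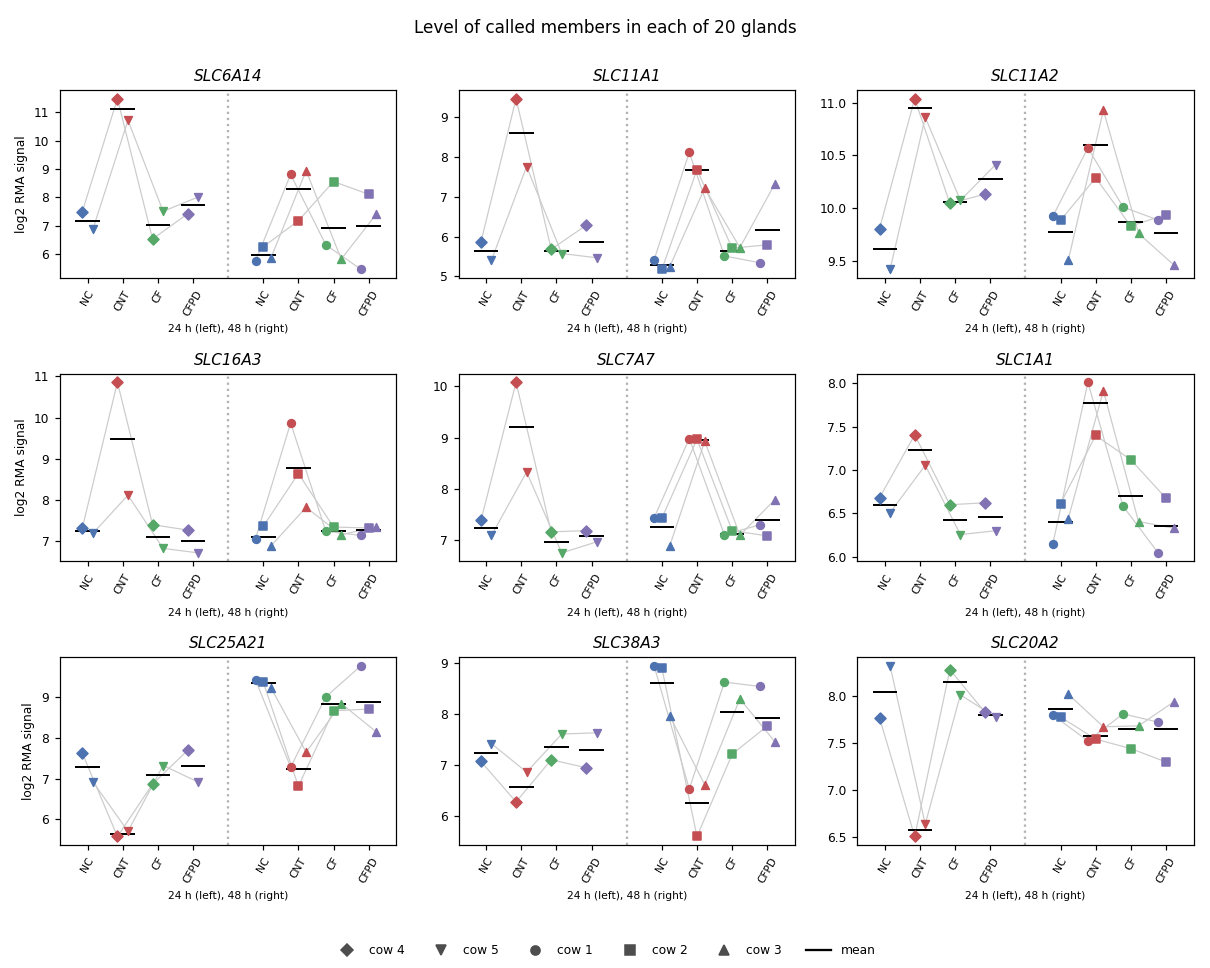
Log2 RMA level of 9 members in each of the 20 glands, by group and time point. Each point is 1 gland, the marker shape gives the cow, black lines are group means, and the y axes differ between panels. SLC6A14, SLC11A1, SLC11A2, SLC16A3, SLC7A7 and SLC1A1 were high in the CNT glands and SLC25A21, SLC38A3 and SLC20A2 low in them, with the CF and CFPD glands mostly near the NC glands.

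The carboxylate carriers moved in opposite directions. SLC16A1 (MCT1), a proton-coupled carrier of lactate, pyruvate and ketone bodies, measured 10.13 and 10.57 in NC and 9.38 and 9.30 in CNT at 24 h and fell, with a log2 fold change of -1.01 ± 0.18 (SE, adjusted p = 0.0419). This is just past the fold minimum, and the call was lost when all arrays entered 1 fit. At 48 h it measured 10.97, 11.72 and 10.41 in NC and 9.50, 9.93 and 10.11 in CNT, a difference of -1.19 (adjusted p = 0.0899) that passed with the cow as a block (adjusted p = 0.0487). Cow 3 showed the smallest difference. SLC16A3 (MCT4), the lactate exporter of glycolytic cells, measured 7.06, 7.36 and 6.89 in NC and 9.87, 8.64 and 7.82 in CNT at 48 h and rose by 1.68 ± 0.38 (SE, adjusted p = 0.0357). The call of SLC16A3 was lost in 4 of 9 alternative settings, and in 7 of 9 cases with a gland or cow left out. At 24 h the CNT glands lay far apart, at 10.86 and 8.12 against 7.31 and 7.19 in NC, so that 2.23 (adjusted p = 0.167) did not pass without the block (adjusted p = 0.0411 with it). Both carriers kept their own direction in all 5 cows. Among the other carboxylate carriers, SLC10A3 was higher in CNT in all 5 cows at 0.31 (adjusted p = 0.516) and 0.48 (adjusted p = 0.0871), and the brighter probe set of SLC16A13 in all 5 as well, at 0.41 (adjusted p = 0.366) and 0.51 (adjusted p = 0.142), whereas its dimmer probe set was lower in all 5.

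Mitochondrial carriers formed the largest family, with 26 probe sets of 20 genes, and their median stayed near 0, at 0.03 at 24 h and 0.174 at 48 h. One of them passed the test. SLC25A21, which exchanges oxodicarboxylates formed in the breakdown of lysine and tryptophan, measured 9.41, 9.36 and 9.22 in NC and 7.28, 6.81 and 7.64 in CNT at 48 h and fell, with a log2 fold change of -2.09 ± 0.34 (SE, adjusted p = 0.00943). At 24 h it measured 7.62 and 6.92 in NC and 5.58 and 5.71 in CNT, a difference of -1.63 (adjusted p = 0.0575) that passed with the cow as a block (adjusted p = 0.0182). The 2 NC glands at 24 h were lower than the 3 at 48 h. SLC25A48 was higher in CNT in all 5 cows, from a difference of 0.12 to 1.65, but it was above the median on 2 CNT arrays and 1 CFPD array only and was not tested. The adenine nucleotide translocators, which exchange ADP for ATP, did not share a direction. SLC25A4 was lower in CNT in all 5 cows, at -0.61 (adjusted p = 0.333) and -0.68 (adjusted p = 0.2), while SLC25A5 was at 0.00 and 0.46 and SLC25A6 at 0.20 and 0.30 on their brightest probe sets. The phosphate carrier SLC25A3 was higher in all 5 cows at 0.52 (adjusted p = 0.287) and 0.29 (adjusted p = 0.281). The citrate carrier SLC25A1, which supplies citrate for fatty acid synthesis, differed by -0.06 and -0.20. SLC25A20, the carnitine and acylcarnitine carrier, had 0.80 at 48 h from 1 cow above all: the CNT gland of cow 2 measured 10.14 beside 8.02 in NC. Over the family, 5 probe sets were higher, SLC25A48 among them, and 3 lower in CNT in all 5 cows. Of 9 tested genes of a list of other mitochondrial exchange proteins, only the pyruvate carrier subunit MPC1 passed, lower at 48 h at -1.60 (adjusted p = 0.0274).

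Glucose carriers were few. SLC2A1 (GLUT1), the main basolateral glucose importer of the mammary epithelium, measured 10.40 and 10.33 in NC and 9.99 and 10.32 in CNT at 24 h, and 11.38, 11.08 and 10.86 and 10.58, 10.08 and 10.31 at 48 h. It was lower in CNT in all 5 cows, and the groups did not overlap at 48 h, but neither -0.21 (adjusted p = 0.64) nor -0.78 (adjusted p = 0.112) passed. SLC2A8 (GLUT8) had -0.31 and 0.00, and SLC2A6 (GLUT6) 0.11 and -0.20. The sodium-coupled and related sugar carriers (SLC5, SLC37 and SLC45) had the lowest class median with over 3 probe sets, at -0.345 for 24 h and -0.454 for 48 h. SLC5A1 (SGLT1), the sodium-glucose cotransporter, measured 10.56 and 11.05 in NC and 9.41 and 10.03 in CNT at 24 h, a difference of -1.09 (adjusted p = 0.124) that passed with the cow as a block (adjusted p = 0.00535). At 48 h cow 1 went the other way, and the difference was -0.26 (adjusted p = 0.669). SLC5A9 (SGLT4), a sodium-dependent carrier of mannose and related sugars, was lower in CNT in all 5 cows, measuring 10.38 and 10.71 in NC and 8.03 and 9.28 in CNT at 24 h. At 48 h it measured 8.26, 6.86 and 8.79 in CNT, which stood below the NC gland of the same cow, with differences of -0.74, -2.20 and -1.03. The differences of -1.89 (adjusted p = 0.0686) and -1.32 (adjusted p = 0.103) passed with the block (adjusted p = 0.00541 and 0.0159). SLC45A1 had -0.34 (adjusted p = 0.22) and -0.82 (adjusted p = 0.0383), the latter past the p threshold with less than a 2-fold difference. SLC37A1, an exchanger of glucose 6-phosphate for phosphate in the endoplasmic reticulum, was higher in all 5 cows at 0.68 (adjusted p = 0.295) and 0.55 (adjusted p = 0.0633). SLC5A5, the sodium-iodide symporter that concentrates iodide into milk, measured 5.85 and 5.26 in NC and 8.88 and 7.21 in CNT at 24 h. It was a member through its CNT arrays alone. At 48 h it was not tested, and cows 1 and 3 were higher and cow 2 lower in CNT. Of 13 tested genes of glycolysis, UDP-galactose formation and lactose synthesis, 0 passed at either time on their brightest probe sets, while a second probe set of LDHA, a subunit of lactate dehydrogenase, was higher at 48 h at 2.14 (adjusted p = 0.0122).

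Phosphate and ion carriers gave 1 call. SLC20A2 (PIT2), a sodium-dependent phosphate importer, measured 7.77 and 8.32 in NC and 6.50 and 6.63 in CNT at 24 h and fell, with a log2 fold change of -1.48 ± 0.22 (SE, adjusted p = 0.0278). At 48 h it measured 7.80, 7.78 and 8.02 in NC and 7.52, 7.54 and 7.67 in CNT, still lower in each cow but by -0.29 on average (adjusted p = 0.347). SLC20A1 (PIT1) had 0.52 and 0.21. SLC34A2, an apical sodium-phosphate cotransporter of the lactating epithelium, was tested at 48 h only, where cows differed widely. It measured 8.36, 7.18 and 6.56 in NC and 5.48, 5.10 and 6.18 in CNT, a difference of -1.78 (adjusted p = 0.118) that passed with the block (adjusted p = 0.0257). SLC34A2 was lower in CNT in all 5 cows. Among ion carriers, SLC12A2 (NKCC1), which brings sodium, potassium and chloride into the cell, was higher in CNT in all 5 cows on its second probe set, at 0.44 (adjusted p = 0.379) and 1.10 (adjusted p = 0.0823), and passed at 48 h with the block (adjusted p = 0.043). That probe set measured 8.71, 8.93 and 8.48 in NC and 8.89, 10.60 and 9.94 in CNT, with cows 2 and 3 apart and cow 1 barely different. SLC8A1, a sodium-calcium exchanger, differed by -0.05 at 24 h and was not tested at 48 h. The 8 tested genes of a list of ion pumps and carbonic anhydrases at 48 h, and the 7 at 24 h, gave 0 calls.

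Members of the SLC35 family, classed as nucleotide sugar carriers by the family symbol alone, numbered 19 probe sets of 14 genes. SLC35F6 was the 1 that passed, at 48 h, with 7.90, 7.94 and 8.01 in NC and 8.54, 9.64 and 9.02 in CNT and a rise of 1.12 ± 0.27 (SE, adjusted p = 0.045). At 24 h it was higher in both cows at 0.78 (adjusted p = 0.122). Its call was lost under quantile normalization and with centring on the members. SLC35A2, which brings UDP-galactose for lactose synthesis into the Golgi, had 0.19 (adjusted p = 0.675) and -0.21 (adjusted p = 0.744) on its brighter probe set. SLC35C1, the GDP-fucose carrier, was lower in CNT in all 5 cows, and by most in cow 1, where it measured 11.17 in NC and 9.68 in CNT. Its means differed by -0.26 (adjusted p = 0.65) and -0.87 (adjusted p = 0.316). In the family 5 probe sets were higher and 2 lower in all 5 cows.

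Of the carriers of nucleosides, vitamins and acetyl-CoA, SLC46A2 was higher in CNT in all 5 cows. It measured 7.48 and 6.40 in NC and 9.54 and 8.26 in CNT at 24 h, and 6.10, 6.07 and 6.80 and 7.46, 7.54 and 7.82 at 48 h. The differences were 1.96 and 1.28, in a member chosen through its CNT arrays. Among probe sets lower in all 5 cows, the one with the largest mean difference in the class belonged to SLC52A2, the riboflavin carrier, and did not pass (-0.33 (adjusted p = 0.488) and -0.44 (adjusted p = 0.181)). SLC17A9, which loads nucleotides into vesicles, was higher in all 5 cows at 1.07 (adjusted p = 0.0766) and 0.58 (adjusted p = 0.472), and passed at 24 h with the block (adjusted p = 0.00808). SLC66A3 rose at 48 h from 7.57, 7.30 and 7.34 to 8.61, 8.97 and 8.21, by 1.19 ± 0.23 (SE, adjusted p = 0.0205). At 24 h it measured 7.47 and 7.08 in NC and 9.34 and 7.80 in CNT, and 1.29 (adjusted p = 0.172) passed with the block (adjusted p = 0.0356). SLC66A2 of the same family had 0.74 (adjusted p = 0.0487) at 24 h, past the p threshold with less than a 2-fold difference, and -0.12 at 48 h. SLC15A4, a lysosomal carrier of histidine and small peptides, differed by -0.32 and 0.04. The 5 probe sets of fatty acid and choline carriers (SLC27A1, SLC27A4 and SLC44A2) gave 0 calls and no direction shared by all 5 cows.

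Of the carriers known for lactation, the calls against NC without the block were both lower and both at 24 h. Of 15 listed genes, 12 were on the array, and all 12 were members with 15 probe sets. In CNT against NC, 0 rose and 2 fell among 14 tested at 24 h (SLC16A1 and SLC20A2), where 0.769% of all probe sets were lower, and 0 of 15 passed at 48 h, with 2.66% of all probe sets called. The list medians were -0.137 and -0.256, beside -0.00564 and 0.126 over all probe sets. With the cow as a block, SLC5A1 was lower at 24 h as well (6.1% of all probe sets called). At 48 h SLC16A1 and SLC34A2 were then lower and SLC12A2 higher (5.17% of all probe sets called). Of the carriers known from leukocytes, 11 were listed, 10 were on the array and 7 were members. SLC11A1 passed at 24 h among 7 tested, and SLC11A1, SLC16A3 and SLC7A7 at 48 h among 6 tested, all higher in CNT, where 1.62% and 2.15% of all probe sets were higher. SLC11A1, the only call of this list at 24 h, was a member through its CNT arrays. Both lists were chosen with earlier results of these data known, so their counts and shares are a description. The list medians were 0.110 and 0.856, beside -0.00564 and 0.126 over all probe sets, and SLC2A6, SLC15A4, SLC31A2 and, at 24 h, SLC8A1 did not pass. The neutrophil marker level was highest in the same CNT glands, and its part in these values was not tested.

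**Figure D3:**
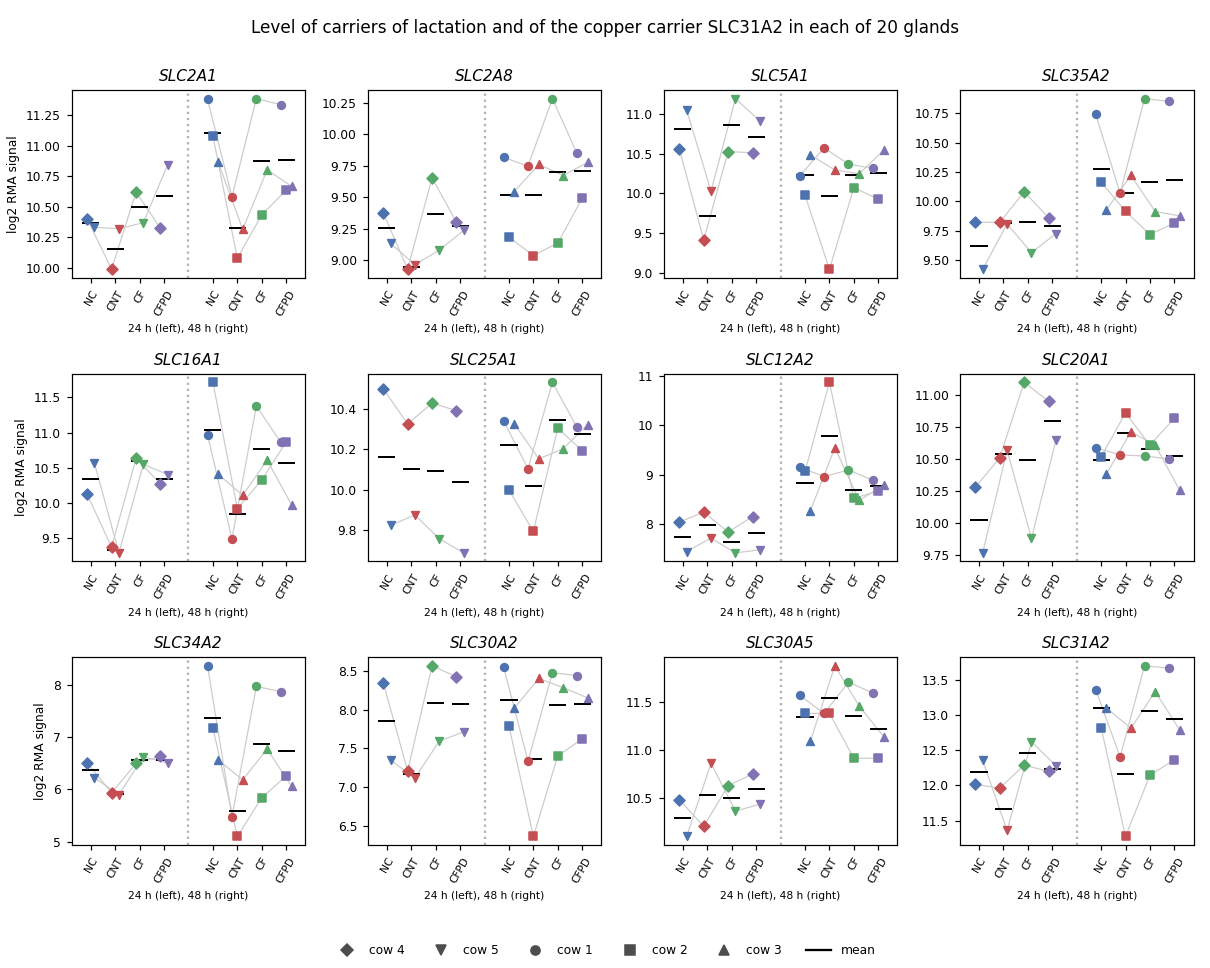
Log2 RMA level of 12 carriers of sugars, citrate, lactate, ions, phosphate, zinc and copper in each of the 20 glands, by group and time point. Each point is 1 gland, the marker shape gives the cow, black lines are group means, and the y axes differ between panels. SLC2A1, SLC16A1, SLC31A2 and SLC34A2 were lower in the CNT than in the NC gland of all 5 cows. The differences between cows were as large as those between groups for SLC30A5 and SLC34A2.

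Treatment set many of the same probe sets apart from the CNT glands. CNT serves both comparisons, so the opposite direction of treated against CNT follows in part from the shared glands. At 24 h 11 of 133 members passed in treated against CNT, 6 higher and 5 lower, against 3.42% of all probe sets (0.915% higher and 2.51% lower). At 48 h 8 of 134 passed, 2 higher and 6 lower, against 2.56% (0.392% and 2.17%). Among the 137 members that met the rule without the CNT arrays the numbers were 8 (6 higher and 2 lower) and 6 (2 higher and 4 lower). Without the fold minimum 14 and 15 members passed (5.58% and 5.13% of all probe sets). With the cow as a block, 16 and 11 passed (5.67% and 4.18%). Across all probe sets the median difference was -0.015 at 24 h and -0.137 at 48 h. The 11 came to 1 with the CNT array of cow 4 left out, and to 1 with all of that cow left out. They came to 3 without either CF array, to 5 without the CFPD array of cow 4 and to 4 without that of cow 5. The 8 at 48 h came to 0 without cow 1, to 3 without cow 2, to 2 without cow 3, to 2 without the CNT array of cow 2 and to 5 without the CF array of cow 3.

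The members lower in treated glands had for the most part been higher in CNT than in NC. SLC6A14 measured 6.53 and 7.50 in CF and 7.42 and 8.01 in CFPD at 24 h, against 11.49 and 10.72 in CNT, a fold change of -3.74 ± 0.37 (SE, adjusted p = 0.00698). SLC11A1 measured 5.68 and 5.57 in CF and 6.28 and 5.47 in CFPD at 24 h, at -2.87 ± 0.47 (SE), and 5.51, 5.71 and 5.72 in CF and 5.34, 5.79 and 7.33 in CFPD at 48 h, at -1.77 ± 0.35 (SE). In cow 3 the gland labelled CFPD, at 7.33, was not below its CNT gland at 7.22. SLC7A7 was lower at both times, at -2.19 (adjusted p = 0.0382) and -1.70 (adjusted p = 0.000741), and SLC16A3 (-1.52 (adjusted p = 0.0265)) and SLC66A3 (-1.09 (adjusted p = 0.013)) at 48 h. Of the members chosen through their CNT arrays, SLC1A1 had -1.25 at 48 h, and SLC46A2 had -2.37 and the iodide carrier SLC5A5 -2.25 at 24 h, which with SLC11A1 are among the calls counted above. With the block, SLC16A3 (-2.43) and SLC66A3 (-1.54) were lower at 24 h as well. SLC12A2 was lower at 48 h on its second probe set (-1.18 (adjusted p = 0.0403)), with 8.68, 8.38 and 8.65 in CF and 8.60, 8.64 and 8.83 in CFPD, against 8.89, 10.60 and 9.94 in CNT.

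Other members were higher in treated glands than in CNT. The mitochondrial carrier SLC25A21 was higher at both times, at 1.55 (adjusted p = 0.0324) and 1.60 (adjusted p = 0.0128). SLC20A2 measured 8.28 and 8.01 in CF and 7.83 and 7.78 in CFPD at 24 h, against 6.50 and 6.63 in CNT (1.41 (adjusted p = 0.0142)). Also higher at 24 h were SLC16A1 (1.13 (adjusted p = 0.0162)), SLC1A4 (1.59 (adjusted p = 0.0438)) and SLC5A9 (1.80 (adjusted p = 0.0393)). SLC18A2 (VMAT2), which loads monoamines into vesicles, was higher at 1.58 (adjusted p = 0.0438), and its 8.89 and 7.59 in CF and 8.32 and 8.19 in CFPD lay above the CNT glands at 6.67 and 6.66. SLC38A3 was higher at 48 h (1.74 (adjusted p = 0.0251)). Among members higher in treated glands, the block added 2 probe sets of SLC5A1 and 1 of SLC28A3, a nucleoside carrier, at 24 h, and SLC5A9 and the second probe set of SLC38A3 at 48 h.

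Singly, CF against CNT gave 5 calls at 24 h (2.14% of all probe sets) and 5 at 48 h (1.64%), and CFPD against CNT gave 2 (1.4%) and 3 (1.21%). On p alone the members were 5 and 6 for CF (2.49% and 2.24% of all) and 2 and 3 for CFPD (1.48% and 1.46%). With the cow as a block they were 18 and 11 for CF (5.91% and 3.98%) and 14 and 9 for CFPD (4.97% and 3.07%). Among the 137 members that met the rule without the CNT arrays, the calls without the block were 3 and 3 for CF (2.31% and 2.29%). For CFPD they were 2 and 2 (1.54% and 1.53%). Of these members, SLC6A14 and SLC20A2 passed in both at 24 h, and SLC7A7 and SLC25A21 in both at 48 h. SLC16A1 passed in CF at 24 h and SLC66A3 in CF at 48 h, but a call in 1 treatment alone is no test of a difference between them. The remaining calls, of SLC11A1 in CF at both times, SLC46A2 in CF at 24 h and SLC1A1 in both at 48 h, belong to members chosen through their CNT arrays. CFPD against CF was tested directly and gave 0 members and 0% of all probe sets at both times, with 1 member at 24 h and 0 at 48 h at an unadjusted p under 0.05. With the labels of cows 2 and 5 exchanged, CFPD against CNT gave 5 calls at 24 h in place of 2. Leaving out 1 gland or cow at a time gave 0 to 12 calls for CF and 0 to 9 for CFPD at 24 h, and 0 to 8 and 0 to 6 at 48 h. The highest numbers came at 24 h with the CNT array of cow 5 left out, and at 48 h with the CF array of cow 2 left out for CF and the CNT array of cow 3 for CFPD. At 24 h they were 0 with the CNT array of cow 4, or either array of the treatment compared, left out, and at 48 h 0 without cow 1.

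Treated glands were close to the unchallenged gland of the same cow. CF against NC and CFPD against NC gave 0 members and 0% of all probe sets at both times by limma, also with the block. At an unadjusted p under 0.05 they gave 0 and 2 members at 24 h (0.815% and 1.98% of all probe sets), and 0 and 0 at 48 h (0.631% and 0.331%). With the block these were 5 and 9 members at 24 h (3.63% and 5.88% of all probe sets), and 2 and 1 at 48 h (1.92% and 1.22%). Over all members the mean differences lay between -0.80 and 0.83 for CF and between -0.43 and 0.89 for CFPD at 24 h. At 48 h they lay between -0.56 and 0.95 for CF and between -0.69 and 1.04 for CFPD. Set against the same cow's NC gland, the CNT glands had 17, 37, 17, 21 and 16 members more than 1 log2 unit away in cows 1 to 5. These were 12%, 26.1%, 12%, 14.8% and 11.3% of 142, against 8.9%, 14.2%, 7.35%, 9.94% and 5.85% of all probe sets. The CF glands had 0 to 5 such members (0% to 3.52%, against 0.371% to 2.7% of all probe sets). The CFPD glands also had 0 to 5 (0% to 3.52%, against 0.193% to 1.68%). Cow 2 stood apart among treated glands: SLC6A14 measured 8.56 in CF and 8.11 in CFPD, above 7.17 in CNT. In cow 3 the gland labelled CFPD was above its NC gland for SLC11A1 (7.33 against 5.23), SLC6A14 (7.41 against 5.86) and SLC7A7 (7.79 against 6.87), and its summed neutrophil level was 10.5 against 9.30.

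**Figure D4:**
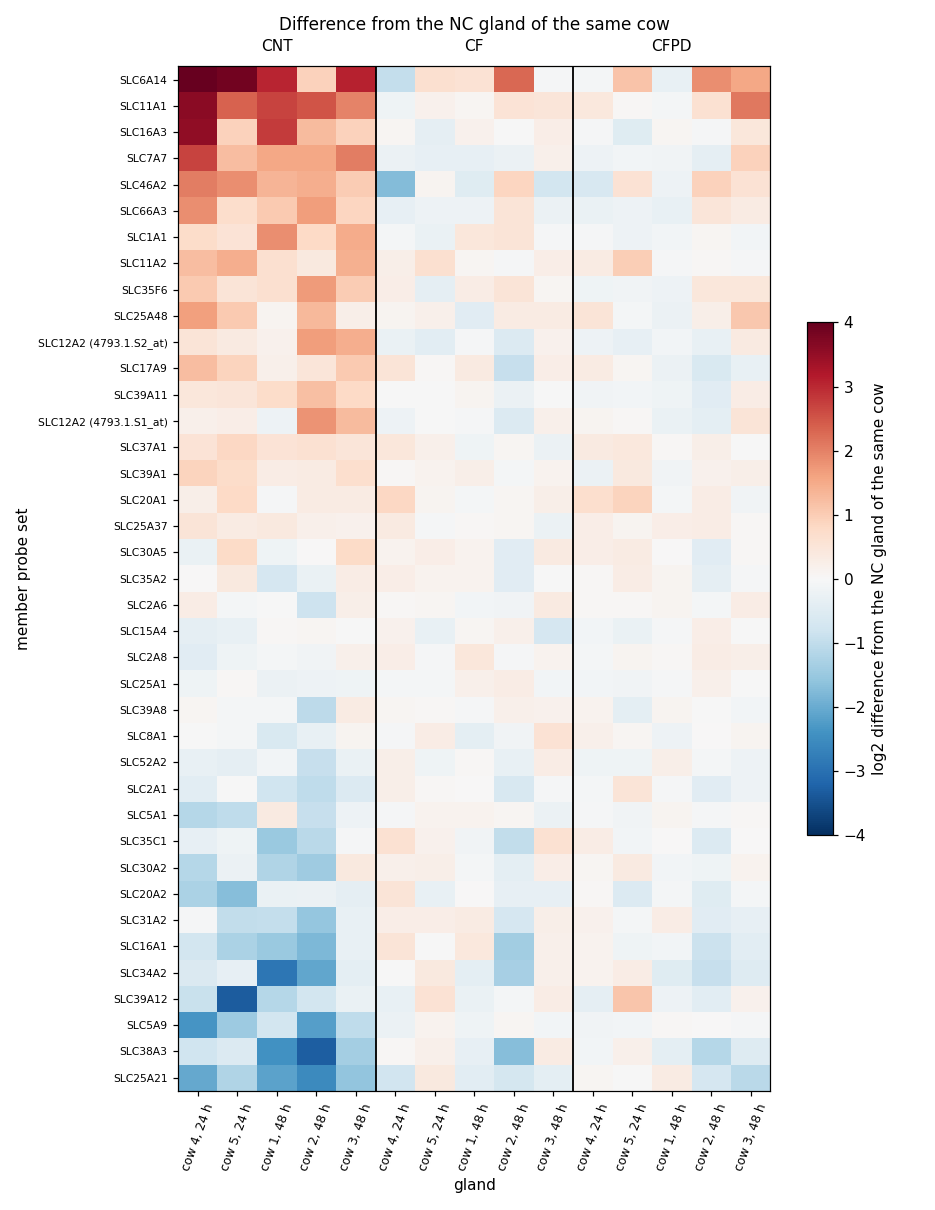
Heat map of the log2 difference of each CNT, CF and CFPD gland from the NC gland of the same cow, for the named members in rows and the 5 cows within each group in columns. Red is higher and blue lower than the NC gland. The CNT columns carry most of the colour, with SLC6A14 and SLC11A1 red and SLC25A21, SLC38A3 and SLC5A9 blue in all 5 cows, and the CF and CFPD columns are mostly pale.

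The response was not shown to differ between time points for any member. The test of the difference between 48 h and 24 h in CNT against NC, in 1 fit of all 20 arrays, gave 0 of 139 members and 0% of 13486 probe sets, with 8 members (5.76%) at an unadjusted p under 0.05, beside 7.8% of all probe sets. With the cow as a block it gave 0.2% of all probe sets and 0 members, with 18 members (12.9%) at an unadjusted p under 0.05, beside 15.1% of all probe sets. It compares different cows, and whether both time points were normalized together is not given in the sources used here. SLC66A2 (-0.87 (adjusted p = 0.203)) and SLC20A2 (1.19 (adjusted p = 0.209)) had the lowest adjusted p-values. SLC38A3, called at 48 h only, had -1.68 (adjusted p = 0.546), and SLC6A14, called at 24 h only, -1.57 (adjusted p = 0.787). SLC17A5, the lysosomal exporter of sialic acid, was lower in CNT in the 3 cows at 48 h and higher in the 2 at 24 h, and SLC25A38, a mitochondrial glycine carrier, the reverse. Their adjusted p-values for the difference were 0.582 and 0.582.

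Cows differed before any challenge response was considered. Over the 5 NC glands, 39 of 142 members (27.5%) spanned more than 1 log2 unit, against 24.5% of all probe sets. SLC39A12 had the widest span, at 3.00, with 7.46 in cow 5 and 4.46 in cow 3. It met the rule only through glands of cow 5, its NC gland included, so a high value there was a condition of entry. SLC38A7, a lysosomal glutamine carrier, followed with 2.76, from 8.31 in cow 1 to 11.07 in cow 5. Its CNT glands at 48 h measured 11.08, 9.56 and 11.14 against 8.31, 8.45 and 9.18 in NC, and the difference of 1.95 (adjusted p = 0.113) did not pass. SLC25A21 spanned 2.49. The NC glands of the 24 h cows and of the 48 h cows did not overlap for 61 members (43%), against 42.2% of all probe sets. Of the members 20 (14.1%) were higher in the former and 41 (28.9%) in the latter, against 22.3% and 20% of all probe sets. Over all 4 glands of each cow 5 members did not overlap, against 2.9% of all probe sets. SLC12A2 (its first probe set), the zinc exporter SLC30A5, the copper importer SLC31A1 and the acetyl-CoA carrier SLC33A1 were higher in the 48 h cows, and SLC25A51, a mitochondrial NAD carrier, in the 24 h cows. SLC33A1, for example, measured 8.45 to 9.05 in the 8 glands at 24 h and 9.31 to 10.67 in the 12 at 48 h. Time point and cow cannot be told apart here, and these spans are not tests.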

How the data were processed

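RNA of 20 glands was measured on Affymetrix Bovine arrays. The authors summarised and normalized the arrays by RMA in the affy package and deposited log2 values in 1 table. Versions, and whether both time points were normalized together, are not given in the sources used here. Groups, cows and times came from the sample labels. Of 24128 probe sets, 112 controls were left out, and 13318 had 1 gene symbol in the platform annotation, 86 several and 10724 none. Genes were named only from probe sets with 1 symbol, with no update of older symbols.

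Probe sets above the array median on at least 2 arrays at 24 h, or 3 at 48 h, were tested with limma 3.58.1 in R 4.3.3, with 4 groups per time point and no cow term. The study's methods name limma's moderated test between groups but not the terms of the model, so these were chosen here. This left 4 residual degrees of freedom at 24 h and 8 at 48 h. Adjusted p-values (Benjamini-Hochberg) cover all probe sets of a comparison, and a probe set was called where this p was under 0.05 and the groups differed by 1 log2 unit or more. The difference between times was fitted on all 20 arrays. The script was tested on simulated data.

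The 4 glands of a cow are pairs by animal. Deviations of same-cow glands from their group means correlated at a mean of 0.551 over the members at 24 h (lowest 0.291) and 0.347 at 48 h (lowest 0.012), and the block is given where it changes a call. The number of arrays limits the precision.

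The members and lists were chosen with earlier results of these data known. Named are members called against NC, CF or CFPD glands, all members of the lactation, leukocyte and host metal lists, and in each substrate class the largest shift in either direction shared by all 5 cows. A gene is given by its brightest probe set, unless a call or shift belongs to another. Alternatives were the cow as a block, 1 fit, filters, centring, quantile normalization, another prior, no fold minimum, and leaving out each gland or cow. Added after seeing the data were the exchange of treated labels in cows 2 and 5, centring on the members, members above the median on all 20 arrays, and members that meet the rule without the CNT arrays.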

Additional observations from a re-analysis of the deposited data

How the results depend on the processing

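Without 1 gland or cow at a time, calls ranged from 0 to 10 for CNT against NC at 24 h (5 in full), 0 to 8 at 48 h (8), 0 to 12 and 0 to 8 for CF against CNT (5 and 5), 0 to 9 and 0 to 6 for CFPD against CNT (2 and 3), and 1 to 13 and 0 to 10 for treated against CNT (11 and 8). With the cow as a block, the numbers at 24 h and 48 h were 15 and 14, 18 and 11, and 14 and 9 for CNT against NC, CF against CNT and CFPD against CNT. With all arrays in 1 fit, CF against CNT gave 8 at 24 h, and CFPD against CNT gave 5 at 24 h and 5 at 48 h. CFPD against CNT at 24 h gave 1 with no filter, 1 with a filter on the mean, 1 with quantile normalization, 1 with a trended and robust prior, and 5 with the labels of cows 2 and 5 exchanged. With the filter on the mean, CF and CFPD against CNT at 48 h gave 3 and 1, and quantile normalization gave 3 for CF. Centring on the members gave 10 for CNT against NC at 24 h. Among members above the median on all 20 arrays, CNT against NC gave 2 and 1, and treated against CNT 2 and 1. Treated against CNT at 48 h gave 15 with no fold minimum. The causes were not tested.

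Of 216 alternative values of the 13 called CNT against NC results, 145 kept their call, 71 lost it and 0 changed direction. Outside the leave-outs, the losses were SLC16A1 at 24 h in 1 fit, SLC16A3 at 48 h in 1 fit, with centring on the array median or on the members and with quantile normalization, and SLC35F6 at 48 h with quantile normalization and centring on the members. Comparisons with 0 calls kept 0 under every alternative run. Centring on the array medians took the median of all probe sets at 48 h from 0.126 to 0.0639 for CNT against NC, and from -0.137 to -0.0713 for treated against CNT. An exchange planned for cows 1 and 4 named the wrong cows and was not run. Depth has no counterpart on arrays, and values near the array median are the least certain.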
